A study of Ovis aries with 6 samples.

Results

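NEUROD1, NEUROD2, NEUROD4 and NEUROD6 are the 4 genes of the NEUROD family, and they were taken by gene name from 26067 features of a sheep brain data set. Messenger RNA was read as full-length cDNA on an Oxford Nanopore instrument in 6 samples labelled hypothalamus. The HP group held 3 healthy small-tailed Han sheep, a breed the submitters call more prolific, and the LP group held 3 healthy Wadi sheep, the less prolific breed. The contrast is therefore between breeds as much as between levels of prolificacy, and no age, treatment or batch is given. The family was selected on its measured counts and TPM in HP and LP, in which its paralogs lay on opposite sides, so the members' levels in that contrast are described here without a test.

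NEUROD proteins are basic helix-loop-helix (bHLH) transcription factors. They pair with an E protein (TCF3, TCF4 or TCF12) and bind short DNA sites called E-boxes, while ID proteins take up E proteins and so block such pairs. In the mammalian brain NEUROD1 is known from granule neurons of the cerebellum and hippocampus, and NEUROD2 and NEUROD6 from excitatory neurons of the cortex and hippocampus. Outside the brain, NEUROD1 is known from pancreatic islets and, in mouse, from pituitary corticotropes. In mouse, NEUROD4 (Math3) takes part in the maturation of growth hormone cells of the pituitary.

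Library totals lay between 1981644 and 2732911 rounded counts. Each table column was assigned by its number, since its letter is not the one in the sample title, and every statement about HP or LP rests on that assignment. Pearson's r of log2 CPM (counts scaled to the TMM-adjusted library size) over genes, which are no independent replicates, was 0.950 to 0.970 among HP libraries, 0.801 to 0.901 among LP libraries and 0.525 to 0.632 across the groups. Defining markers went against the label hypothalamus in both groups. NKX2-1, RAX, GNRH1, KISS1 and HCRT had no count in any library, and of 26 hypothalamic genes 1, TRH, had enough counts for a test. The summed CPM on library totals of 7 pituitary hormone genes was 47.2 to 139 in HP and 47146 to 299657 in LP, and that of 26 genes known from cerebellar granule cells was 7577 to 8971 in HP and 356 to 915 in LP. The part of differing tissue make-up in the NEUROD values was not tested, and in bulk samples fewer cells of a type and less RNA per cell cannot be told apart.

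HP libraries held NEUROD1 and NEUROD6, LP libraries held NEUROD4, and NEUROD2 was close to the detection limit in both. NEUROD1 stood at 707 ± 163 CPM in HP and 1.49 ± 0.396 CPM in LP (SD, n = 3 each). NEUROD6 stood at 81.5 ± 15.0 CPM in HP (SD, n = 3) with no count in LP, and NEUROD4 at 48.5 ± 38.8 CPM in LP (SD, n = 3) with no count in HP. In NEUROD1 and NEUROD6 all HP libraries lay above all LP libraries, as in 33.9% of the 13078 genes tested, and for NEUROD4 all HP libraries lay below all LP libraries, as in 29.0%. Among the tested genes 0.604% had no count in LP, as NEUROD6 did, and 0.145% had none in HP, as NEUROD4 did. The family was chosen by this split, so nothing is read from these shares, and 3 of its 4 genes passed the filter on low counts, NEUROD2 being left out.

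**Figure D1:**
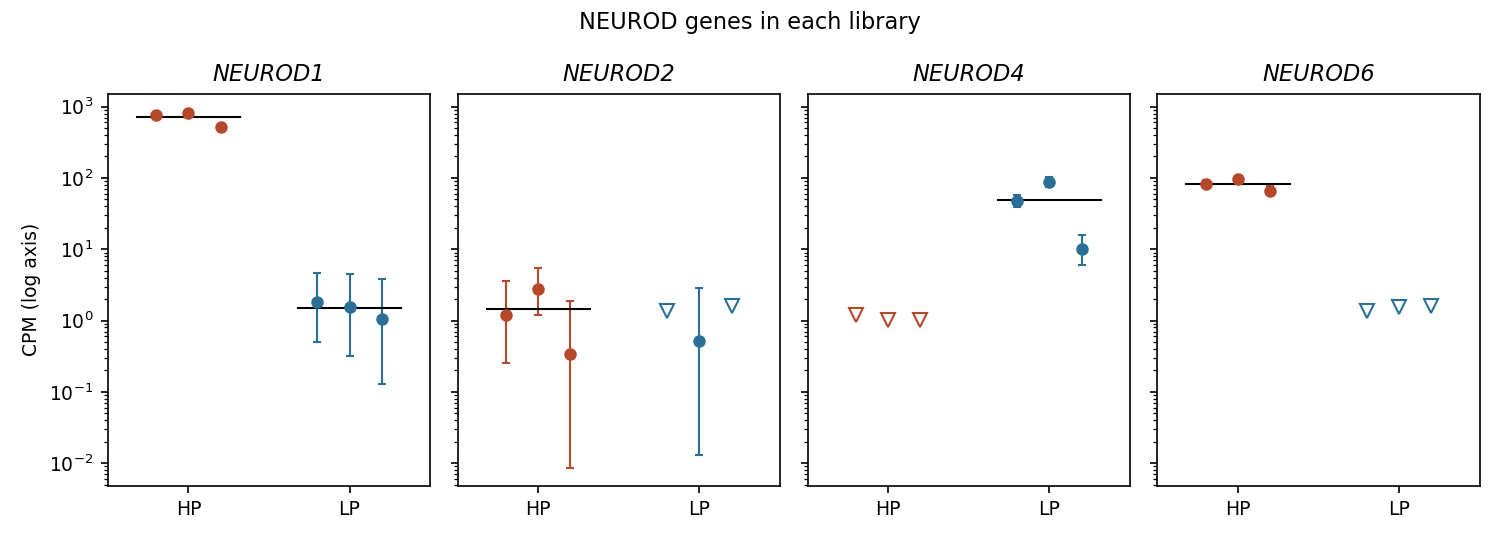
CPM of each NEUROD gene in the 3 HP and 3 LP libraries, on a log axis. Filled points carry 95% exact Poisson intervals (counting error only), open triangles mark libraries without a count at the limit of 3 counts, and black lines are group means where every library had a count. NEUROD1 sits between 521 and 826 CPM in HP and between 1.06 and 1.84 CPM in LP.

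NEUROD1, a differentiation factor of granule neurons, had 1910, 2406 and 1536 counts in the HP libraries, against 4, 3 and 2 in the LP libraries. In CPM these were 773, 826 and 521 in HP against 1.84, 1.55 and 1.06 in LP. The lowest HP library was thus far above the highest LP library, and HP replicate 3 lay below the other HP libraries beyond counting error, with 95% exact Poisson intervals of 496 to 548 CPM for it and 739 to 808 CPM for replicate 1. The LP values could not be told apart at this depth, since their intervals ran from 0.502 to 4.72 CPM in replicate 1 and from 0.128 to 3.82 CPM in replicate 3. The ratio of group means was 476-fold toward HP, and the ratio of summed counts was 468 with a 95% counting interval of 246 to 1023.

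NEUROD6, a factor known from cortical and hippocampal projection neurons, had 203, 280 and 195 counts in the HP libraries and none in any LP library. The HP libraries held 82.1, 96.1 and 66.2 CPM, whereas a count of 0 allows up to 1.38, 1.55 and 1.59 CPM (3 counts) in LP replicates 1, 2 and 3. NEUROD6 was therefore at least 54.0-fold higher in HP, set against 3 counts in each LP library. The coefficient of variation over HP libraries was 18.4%, beside 23.0% for NEUROD1.

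NEUROD4, a factor of the retina and pituitary in mouse, had no count in any HP library and 104, 169 and 19 counts in the LP libraries. These were 47.9, 87.6 and 10.1 CPM in LP, against limits of 1.21, 1.03 and 1.02 CPM in HP replicates 1, 2 and 3. LP replicate 2 was highest and LP replicate 3 lowest, a range of 8.71-fold, and their 95% exact Poisson intervals (74.9 to 102 and 6.06 to 15.7 CPM) did not meet. NEUROD4 was at least 44.6-fold higher in LP (at least 27.5-fold on leaving out LP replicate 2, and at least 63.6-fold on leaving out LP replicate 3). Its coefficient of variation over LP libraries was 79.9%.

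NEUROD2, a factor of cortical and cerebellar neurons, had 3, 8 and 1 counts in the HP libraries, against 0, 1 and 0 in the LP libraries. This is 12 against 1 in all, too few for the filter on low counts. The ratio of summed counts was 8.63 toward HP, with a 95% counting interval of 1.28 to 369, and HP replicate 2 held most of the counts. NEUROD2 reached at most 2.75 CPM (HP replicate 2), and the values of HP replicate 3 and LP replicate 2 (0.339 and 0.518 CPM) show that the groups overlapped.

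Per transcript length, the make-up of the family was steady within HP and turned over in LP. The deposited TPM (transcript levels scaled for length and depth) compare genes per length. Their ratio to the counts took NEUROD4 as 1.59 times and NEUROD6 as 0.840 times as long as NEUROD1, the same in the 3 libraries with counts of each, and NEUROD2 as 1.23 to 1.27 times as long. For some other genes, TCF4 and HEY2 among them, the length implied in this way differed between libraries. NEUROD1 averaged 59.6 ± 7.87 TPM in HP and 0.221 ± 0.0786 TPM in LP (SD, n = 3 each). NEUROD6 averaged 8.25 ± 1.04 TPM in HP and NEUROD4 4.53 ± 3.56 TPM in LP (SD, n = 3 each), and NEUROD2 averaged 0.0940 ± 0.0792 TPM in HP and 0.0202 ± 0.0351 TPM in LP (SD, n = 3 each). In HP the order was thus NEUROD1, NEUROD6, NEUROD2, with NEUROD4 undetected. In LP it was NEUROD4, NEUROD1, NEUROD2, with NEUROD6 undetected, and NEUROD1 and NEUROD2 there had too few counts for their order to be firm.

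NEUROD1 made up 88.6%, 87.6% and 86.8% of the summed NEUROD TPM in HP replicates 1, 2 and 3, and NEUROD6 11.2%, 12.1% and 13.1%. In LP, NEUROD4 made up 94.2%, 96.5% and 85.6% in replicates 1, 2 and 3. The smaller share in LP replicate 3 came with only 21 NEUROD counts in that library, of which 19 were NEUROD4 (95% Wilson interval of its count share 71.1% to 97.3%). The summed NEUROD level was 66.1, 77.6 and 60.3 TPM in the HP libraries, against 5.13, 8.23 and 0.969 TPM in the LP libraries. TPM weighs the groups differently from CPM: 1 NEUROD1 count stood for 0.0283 to 0.0341 TPM in HP and 0.0696 to 0.0748 TPM in LP, and the ratio of NEUROD1 means was 270 in TPM.

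**Figure D2:**
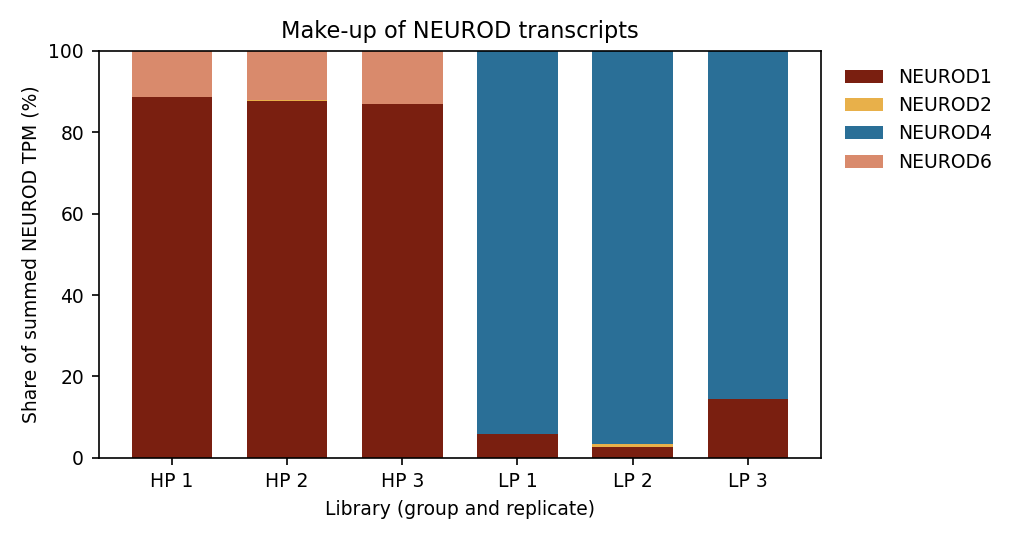
Share of each gene in the summed NEUROD TPM of each library, in percent, with HP libraries on the left and LP libraries on the right. NEUROD1 fills 86.8% to 88.6% of the HP bars and NEUROD4 85.6% to 96.5% of the LP bars.

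The deposited annotation gives a helix-loop-helix domain to 100 features, and the 4 NEUROD genes alone carry the neuronal bHLH domain beside it. By mean TPM, NEUROD1 ranked 9 and NEUROD6 14 among these 100 genes in HP, whereas NEUROD1 ranked 46 in LP. NEUROD4 ranked 20 in LP. The highest helix-loop-helix genes by TPM in HP were TCF4 at 737 ± 19.0, MXI1 at 581 ± 31.7 and TCF12 at 468 ± 59.3 TPM (SD, n = 3). In LP they were TCF12 at 508 ± 197, MXI1 at 295 ± 62.2 and TCF4 at 171 ± 75.4 TPM (SD, n = 3). These ranks rest on the lengths implied by the TPM, and CPM gave another order in HP. There NEUROD1, at 707 CPM, stood above TCF4 at 499 ± 86.7 and TCF12 at 140 ± 16.2 CPM (SD, n = 3). Of the 96 other helix-loop-helix genes, 79 had a count in any library. Counts in HP with none in LP were found in 9 of them, and counts in LP with none in HP in 11. Few of these had many counts: 0 had 10 or more counts in HP with none in LP. The opposite held for 1, MXD4, a partner of MAX, with 0 HP counts and 10, 40 and 13 in the LP libraries (named after its values were seen).

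Within the HP libraries there were 9.41, 8.59 and 7.88 NEUROD1 counts per NEUROD6 count in replicates 1, 2 and 3. Per count of GABRA6, a GABA-A receptor subunit of cerebellar granule cells, there were 3.40, 4.30 and 2.81 NEUROD1 counts in HP replicates 1, 2 and 3. Per count of RBFOX3, the NeuN gene of mature neurons, there were 0.971, 1.73 and 1.25. The highest of the 3 proportions was 1.19 times the lowest for NEUROD6, 1.53 times for GABRA6 and 1.78 times for RBFOX3. It was 1.35 times for PCP2, of Purkinje cells, 1.69 times for SLC17A7, a vesicular glutamate transporter gene, and 2.16 times for CBLN3, a cerebellin gene of granule cells. These are counts of single libraries, and proportions between genes are used here only to compare libraries.

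Within the LP libraries, counts per NEUROD4 count ranged less for growth hormone than for 2 corticotrope genes, but least for INSM1, a gene of endocrine cells in general. The LP libraries held 359, 490 and 398 counts of GH, the growth hormone gene, per NEUROD4 count in replicates 1, 2 and 3, the highest 1.36 times the lowest. For POMC, the adrenocorticotropin precursor of corticotropes, it was 8.65, 3.64 and 11.7 counts, a range of 3.21 times, and for TBX19, a corticotrope transcription factor, 0.279, 0.136 and 0.579, a range of 4.25 times. INSM1, a zinc finger factor of endocrine cells, had 2.53, 2.00 and 2.00 counts per NEUROD4 count, a range of 1.26 times. GHRHR, the receptor for growth hormone-releasing hormone, had 0.288, 0.462 and 0.368, a range of 1.60 times. In LP replicate 3 these proportions rest on 19 NEUROD4 counts, beside 38 of INSM1, 11 of TBX19 and 7 of GHRHR. The ranges carry no interval for counting error, so the order of the smaller ones is not firm. With 3 libraries these proportions are a description, and the LP libraries with more NEUROD4 also held more hormone transcripts in all. The summed hormone counts came mostly from PRL, the prolactin gene, with 276428, 597051 and 82255 counts in LP replicates 1, 2 and 3. Per NEUROD4 count the range was 1.63 times for PRL and 2.54 times for CGA, a pituitary hormone subunit gene. For POU1F1, a factor of growth hormone and other pituitary cells, it was 2.14 times, so the ranges did not single out growth hormone cells.

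The genes with the most similar profiles over the 6 libraries were found by the root mean square difference of centred log2 CPM among 8961 tested genes with a symbol. This measure includes the HP against LP contrast by which the members were chosen. Similar profiles are therefore a description, and shared regulation was not tested. For NEUROD1 they were SHISA8, an AMPA receptor auxiliary gene, TRH, the thyrotropin-releasing hormone gene, PCP2, a Purkinje cell gene, GRM4, a metabotropic glutamate receptor gene, and NEUROD6, at differences of 0.58 to 0.83. SHISA8 had 276, 407 and 326 HP counts, against none in LP, and GRM4 had 448, 296 and 273 in HP against 1, 1 and 0 in LP. For NEUROD6 they were EN2, a patterning gene of midbrain and hindbrain, TRH, SHISA8, KCNK9, a potassium channel gene, and SLC32A1, the vesicular GABA transporter gene, at 0.24 to 0.35. EN2 had 159, 183 and 198 HP counts, against none in LP. SLC32A1 had 141, 231 and 196 in HP against 1, 0 and 0 in LP.

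For NEUROD4, 3 of the 5 most similar profiles were those of CLDN9, a tight junction gene, ELAPOR1 and SCG2, a granin gene, at differences of 0.29 to 0.31. CLDN9 had no count in HP and 75, 118 and 11 counts in LP. ELAPOR1 had 9, 12 and 14 HP counts, against 377, 695 and 100 in LP. As with NEUROD4, LP replicate 2 was highest and LP replicate 3 lowest in all of these 3 genes. The profile of NEUROD2 rested on 13 counts in all, and its 5 nearest genes (TIMM8B, KCNK13, TTC9C, EEF1B2 and EPB41L5, at 0.25 to 0.30) carry that limit. TIMM8B, a mitochondrial import gene, for example, had 727, 1261 and 749 HP counts, against 284, 408 and 270 in LP.

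**Figure D3:**
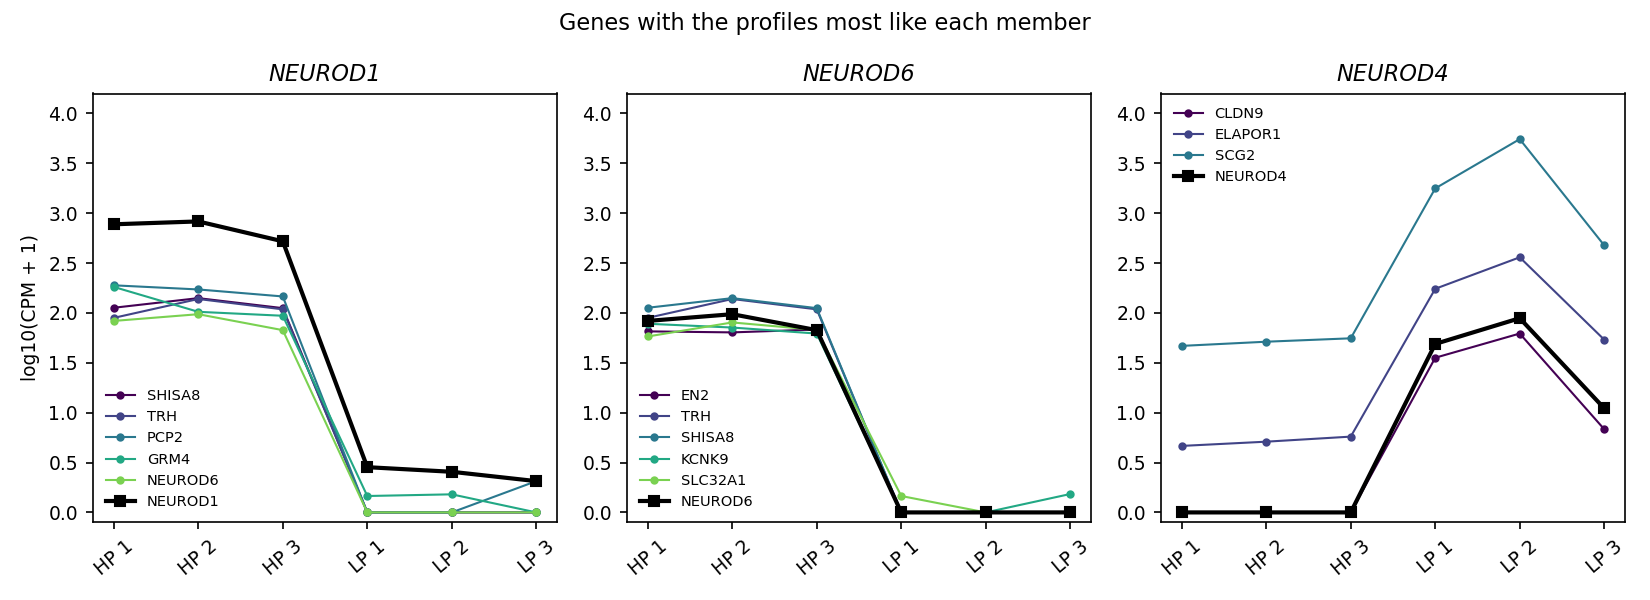
CPM on the log10(CPM + 1) scale in each library for NEUROD1, NEUROD6 and NEUROD4 (black squares) and genes among the 5 with the most similar centred profile (coloured points, 5 genes for NEUROD1 and NEUROD6 and 3 for NEUROD4), with lines joining the values of a gene. The NEUROD1 and NEUROD6 panels are high in the HP libraries and at or near 0 in LP, and the NEUROD4 panel is high in LP, lowest there in replicate 3.

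The values of other genes, listed as partners, repressors, cofactors, reported targets, cell markers or neighbours, were not used in choosing the family, so these genes were tested. The lists were drawn up with earlier results of these data known, so the tests are not independent of the data. The edgeR adjusted p given from here on comes from the quasi-likelihood test in edgeR, corrected by the Benjamini-Hochberg method over all 13078 tested genes, with a threshold of 0.05. It called 51.2% of these genes, 27.1% higher in HP and 24.1% higher in LP. The median change (log2, HP minus LP) was 0.02. Of the calls, 52.9% were higher in HP, against 63.0% with library totals alone, 36.8% with TPM and a pseudocount of 1, and 34.5% with TPM and a pseudocount of 0.1. The median became 0.27, -0.31 and -0.40 with these 3 settings. Every direction given is relative to the TMM scaling.

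Of the 96 helix-loop-helix genes besides the NEUROD genes, 34 had enough counts for a test. The calls were 5 toward HP and 7 toward LP, or 12 of 34 called against 51.2% of all tested genes, with a median log2 fold change of -0.29. Without LP replicate 3, 22 of 37 were called, 11 in each direction. The bHLH factors of the nervous system were mostly too scarce to test: of 22 listed, 4 were tested, and 2 of them were higher in HP and 0 in LP. Toward LP, 1 of the 4 had an unadjusted p under 0.05, and DESeq2 and limma-voom called 0. The called genes numbered 1 without HP replicate 2, and 3 without LP replicate 2 or without LP replicate 3. Of the 3 without LP replicate 2, 1 was called toward LP, as was 1 of the 2 called with TPM and a pseudocount of 0.1.

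NHLH2, a bHLH factor of developing neurons, had 87, 162 and 94 HP counts, against 0, 1 and 0 in LP. The ratio of its summed counts was 247 toward HP (95% counting interval 44.0 to 9771), with edgeR adjusted p = 5.79e-04 over all libraries. With LP replicate 2, which holds the single LP count, left out, the bound was at least 27.2-fold. BHLHE22, a repressor of the OLIG-related family, had 140, 318 and 210 HP counts, against 35, 53 and 6 in LP. It was 5.05-fold higher in HP, with a log2 fold change of 2.34 ± 0.65 (SE) and edgeR adjusted p = 0.0201. The call was lost on leaving out HP replicate 2 (adjusted p = 0.0699) and with TPM (0.0634 and 0.0825 with pseudocounts of 1 and 0.1), and the fold was 7.83 without LP replicate 2. OLIG1, of the oligodendrocyte lineage, had 28, 57 and 57 HP counts, against 1, 0 and 22 in LP and was not called (edgeR adjusted p = 0.135), but it passed without LP replicate 3 (adjusted p = 6.64e-04).

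The factors that act before NEUROD genes in development were nearly absent. ATOH1, which specifies cerebellar granule cells in mouse, NEUROG1 and NEUROG3 had no count in any library, and NEUROG2 had 1, 0 and 3 HP counts, against none in LP. ATOH7, TAL2, ATOH8 and TCF15 were too scarce for a test. ATOH7 had 11, 9 and 8 HP counts, against 5, 7 and 3 in LP, and TAL2 7, 6 and 7 in HP against 6, 10 and 12 in LP. ATOH8 had 1, 0 and 5 in HP against 9, 0 and 10 in LP, and TCF15 1, 1 and 1 in HP against 20, 0 and 1 in LP.

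Among the E proteins, TCF4 was higher in HP and TCF12 was not called. TCF4 had 1479, 1348 and 1288 HP counts, against 332, 153 and 264 in LP. It was 4.03-fold higher in HP, with a log2 fold change of 2.01 ± 0.31 (SE) and edgeR adjusted p = 0.00228. TCF12 had 391, 382 and 381 HP counts, against 372, 262 and 380 in LP, a log2 fold change of -0.28 ± 0.22 (SE) with edgeR adjusted p = 0.317. TCF3 had 2, 3 and 2 HP counts, against 9, 4 and 2 in LP and was not tested. Both groups held transcripts of E proteins, and the sum of the 3 genes was 632 to 803 CPM on library totals in HP and 173 to 326 in LP.

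Of the ID, HES and HEY repressors, 8 of 16 were tested, 0 were higher in HP and 3 were higher in LP. The share called, 3 of 8, was under the 51.2% called among all tested genes, of which 27.1% were higher in HP and 24.1% in LP. The median log2 fold change of the repressors was -0.67. DESeq2, limma-voom and an unadjusted p under 0.05 also gave 0 toward HP. ID3, an inhibitor of E proteins, had 19, 39 and 35 HP counts, against 776, 172 and 274 in LP. It was 17.8-fold higher in LP (10.5-fold on leaving out LP replicate 1), with a log2 fold change of -4.16 ± 0.58 (SE) and edgeR adjusted p = 0.00166. The other ID genes were not called: ID1 averaged 55.9 ± 18.2 CPM in HP and 75.7 ± 17.5 CPM in LP, ID2 96.8 ± 20.1 CPM in HP and 72.2 ± 41.8 CPM in LP, and ID4 7.52 ± 1.26 CPM in HP and 7.45 ± 6.48 CPM in LP (SD, n = 3 each). The sign of the ID2 and ID4 differences turned under other scalings, that of ID2 with TPM. BHLHE40, a clock-linked repressor, was 3.01-fold higher in LP (edgeR adjusted p = 0.00621). HEY2, a repressor downstream of Notch, was 3.93-fold higher in LP (2.40-fold on leaving out LP replicate 1). Its call (edgeR adjusted p = 0.0181) did not pass on leaving out HP replicates 1, 2 or 3 (adjusted p = 0.0842, 0.0717 and 0.0526). Without LP replicate 3 the list had 6 calls, 1 of them toward HP. With no filter on low counts it had 5 calls, 1 toward HP and 4 toward LP.

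Cofactors of bHLH complexes went both ways, with 3 of 7 tested genes higher in HP and 2 higher in LP, beside 27.1% and 24.1% of all tested genes. Their median log2 fold change was -0.02 and their mean 0.12. EP300, a histone acetyltransferase gene, was 2.93-fold higher in HP (edgeR adjusted p = 0.00179), SMARCD3, a chromatin remodelling subunit gene, 5.72-fold (edgeR adjusted p = 0.00181) and RUNX1T1, a corepressor gene, 3.25-fold (edgeR adjusted p = 0.00811). LMO4, which encodes a LIM-only adaptor, was 6.79-fold higher in LP (edgeR adjusted p = 6.56e-04), with 20, 20 and 28 HP counts, against 134, 87 and 114 in LP. LDB1, the LIM domain-binding gene, was 3.49-fold higher in LP (edgeR adjusted p = 0.0149), a call lost on leaving out HP replicate 1 or 2 (adjusted p = 0.0786 and 0.0828).

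**Figure D4:**
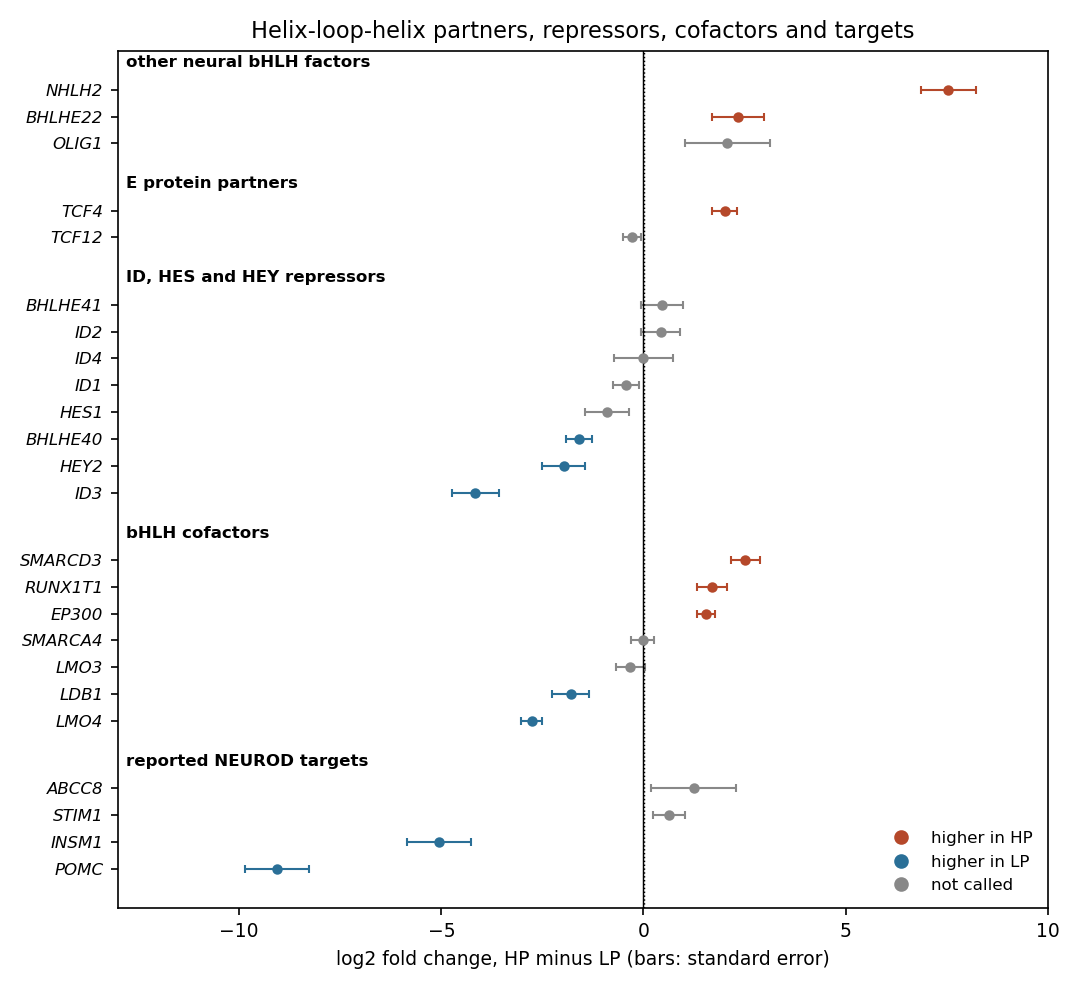
Log2 fold change, HP minus LP, with its standard error for tested genes of 5 lists around the NEUROD family; colour marks the call by edgeR's quasi-likelihood test, the solid line is 0 and the dotted line the median of all tested genes. NHLH2, at 7.54, lies farthest toward HP and POMC, at -9.07, farthest toward LP.

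Genes reported as targets of NEUROD proteins, mostly in rodents, were tested in 4 of 12 cases. Of these 4, 0 were higher in HP and 2 were higher in LP, beside 27.1% and 24.1% of all tested genes. The share called, 2 of 4, was close to the 51.2% called among all tested genes, so nothing is read from it about targets. DESeq2, limma-voom and an unadjusted p under 0.05 gave 0 toward HP too. POMC had 0, 2 and 2 HP counts, against 900, 615 and 222 in LP, in the group with the lower NEUROD1. It was 537-fold higher in LP, with a log2 fold change of -9.07 ± 0.79 (SE) and edgeR adjusted p = 5.27e-04. INSM1 had 8, 9 and 9 HP counts, against 263, 338 and 38 in LP and was 33.2-fold higher in LP (edgeR adjusted p = 0.00254). GHRHR had 1, 0 and 0 HP counts, against 30, 78 and 7 in LP. It was not tested, and the ratio of its summed counts was 160 toward LP, with a 95% counting interval of 28.1 to 6370. STIM1 and ABCC8 were not called (edgeR adjusted p = 0.204 and 0.350), although ABCC8 passed without LP replicate 3 (adjusted p = 0.00463, 16.1-fold higher in HP). The insulin gene INS had no count in any library. Without LP replicate 3 this list had 5 calls, 1 of them toward HP.

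Marker lists of cells in which NEUROD genes are known differed in how they stood to the members. Among all tested genes 27.1% were called higher in HP and 24.1% higher in LP. Of the granule cell genes, 21 of 23 tested were higher in HP and 0 in LP (23 and 0 by DESeq2, by limma-voom and at an unadjusted p under 0.05), with a median log2 fold change of 4.27, or 4.13 with BARHL2, which had no LP count, at its bound. Leaving out each library gave 17 to 23 calls toward HP, and TPM with a pseudocount of 1 gave 19, with 0 toward LP. TIAM1, a Rac activator gene, was 27.4-fold, CBLN3, a cerebellin gene, 90.7-fold and GABRA6 164-fold higher in HP (edgeR adjusted p = 3.16e-04, 3.16e-04 and 3.42e-04). With LP replicate 2 left out, GABRA6 stood at 367-fold. Of 19 pallial projection neuron genes, the neurons best known for NEUROD2 and NEUROD6, 8 were tested, with 2 higher in HP, 2 higher in LP, a median log2 fold change of 0.08 and a mean of -0.21. CUX2, EMX1 and LHX2, patterning genes of the cortex, had no count in any library, and TBR1, of cortical neurons, had 2, 1 and 0 HP counts, against none in LP. NEUROD6 in HP stood beside these defining cortical markers at or near 0. PROX1, a factor also known from dentate granule cells, was 2.63-fold higher in HP (edgeR adjusted p = 0.00373), a call lost with TPM (adjusted p = 0.0556 and 0.0670).

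Of the pituitary lineage regulators, 0 of 12 tested were higher in HP and 9 in LP (0 and 10 at an unadjusted p under 0.05, 0 and 8 by limma-voom, 0 and 9 by DESeq2), with a median log2 fold change of -7.59, or -4.84 with genes lacking any HP count at their bound. POU1F1, the factor of growth hormone, prolactin and thyrotropin cells, had no count in HP and 42, 146 and 10 in LP. It was at least 30.7-fold higher in LP (edgeR adjusted p = 0.0109 over all libraries), and at least 11.7-fold without LP replicate 2. TBX19 had none in HP and 29, 23 and 11 in LP, at least 9.53-fold higher in LP (edgeR adjusted p = 0.00233). All 7 pituitary hormone genes were higher in LP. The call of TSHB, the thyrotropin beta subunit gene, was lost with limma-voom and on leaving out HP replicate 1, 2 or 3 (adjusted p = 0.0564, 0.0635, 0.0598 and 0.0559), and DESeq2 gave it no adjusted p and called the other 6. Among the 7 was GH, with 17, 8 and 11 HP counts, against 37340, 82773 and 7565 in LP. Of 14 pineal and photoreceptor genes, other cells known for NEUROD1, 0 had enough counts for a test. Their summed level was 12.1 to 45.0 CPM on library totals in HP and 6.61 to 27.3 in LP, and CRX, TPH1 and RCVRN had no count in any library. Of 12 tested general neuron genes, 10 were higher in HP, and of 9 Purkinje cell genes, 7 were, with 0 toward LP in both lists (also at an unadjusted p under 0.05, by DESeq2 and by limma-voom). With TPM at either pseudocount the Purkinje list had 6 calls toward HP and 1, ITPR1, toward LP. Astrocyte genes gave 1 call of 7 toward HP and oligodendrocyte genes 0 of 5 (0 also at an unadjusted p under 0.05, by DESeq2 and by limma-voom), with medians of 0.68 and -1.91 and summed levels of 6266 to 7964 CPM in HP and 178 to 10801 in LP for astrocyte genes and 296 to 400 CPM in HP and 17.4 to 4317 in LP for oligodendrocyte genes. Without LP replicate 3, 7 of 7 astrocyte and 5 of 5 oligodendrocyte genes were called toward HP, with medians of 3.77 and 4.34. With any other library left out, both lists had 0 calls. The part of these transcripts in the NEUROD values was not tested.

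The 4 genes lie at separate places in RefSeq's gene table (assembly ARS-UI_Ramb_v3.0), each among other neighbours, and the 3 protein-coding genes with a symbol on either side were compared. Of these 24 neighbours, 22 were among the features and 12 were tested. Higher in HP were 5 and higher in LP 2, or 7 of 12, beside 51.2% of all tested genes. The largest fold among the tested neighbours was near NEUROD6, on the far side of ITPRID1, where PPP1R17, a phosphatase inhibitor gene of cerebellar Purkinje cells, had 906, 1029 and 641 HP counts, against 6, 8 and 2 in LP and was 115-fold higher in HP (edgeR adjusted p = 3.42e-04). PDE1C, a calmodulin-dependent phosphodiesterase gene, and ADCYAP1R1, the PACAP receptor gene, were also higher in HP, at 3.92-fold and 6.09-fold (edgeR adjusted p = 0.0123 and 0.0214). The PDE1C call was lost with TPM (adjusted p = 0.0544 and 0.0609). That of ADCYAP1R1 was lost on leaving out HP replicate 1, 2 or 3 and without LP replicate 2 (adjusted p = 0.0710, 0.0622, 0.0746 and 0.0564), and its fold was 4.02 with LP replicate 1 left out and 18.1 with LP replicate 3 left out. GHRHR, on the far side of ADCYAP1R1 from NEUROD6, had 1 count in HP and 115 in LP.

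Beside NEUROD1, the neighbours split. CERKL had 55, 69 and 62 HP counts, against 1, 8 and 5 in LP and was 9.24-fold higher in HP (14.3-fold on leaving out LP replicate 2), with edgeR adjusted p = 0.00329 (0.0557 with TPM and a pseudocount of 0.1). ITPRID2, on the other side, had 26, 24 and 24 HP counts, against 60, 36 and 112 in LP and was 3.91-fold higher in LP (edgeR adjusted p = 0.0106), a call lost on leaving out HP replicate 2 (adjusted p = 0.0546). PDE1A, ITGA4 and UBE2E3 were not called (edgeR adjusted p = 0.663, 0.0786 and 0.202), and ITGA4 passed without LP replicate 1 (adjusted p = 0.0437). Beside NEUROD4, BLOC1S1 was 2.46-fold higher in LP (edgeR adjusted p = 0.00798) and SNRPF, a spliceosome gene, was not called (edgeR adjusted p = 0.398). TESPA1, which adjoins NEUROD4, had no count in HP and 0, 0 and 1 in LP. Beside NEUROD2, FBXL20 was 2.10-fold higher in HP (edgeR adjusted p = 0.00811), a call lost with TPM (adjusted p = 0.0653 and 0.0778), and MED1, a Mediator subunit gene, was not called (edgeR adjusted p = 0.931).

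**Figure D5:**
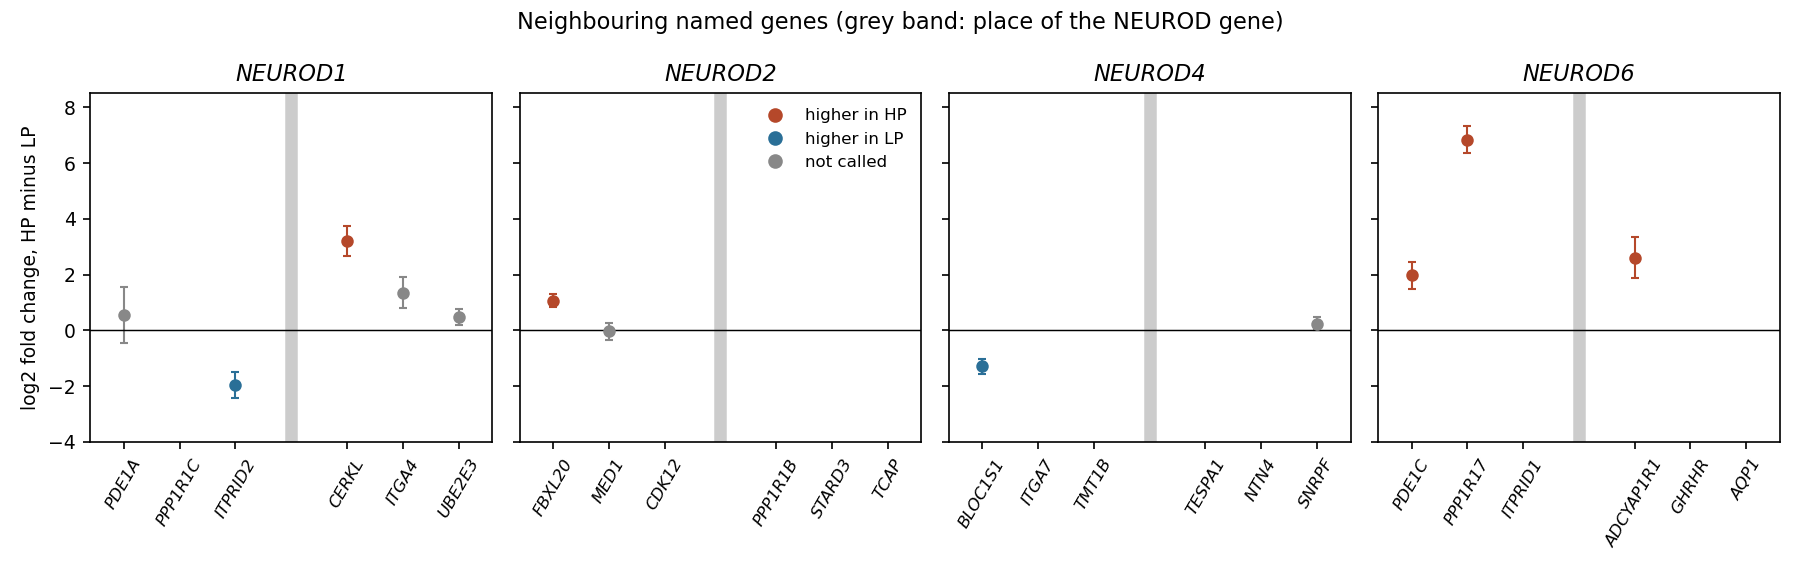
Log2 fold change, HP minus LP, with its standard error for the 3 named protein-coding genes on either side of each NEUROD gene, in chromosome order and not to scale; genes without a point were not tested. PPP1R17 beside NEUROD6 reaches 6.85, and called neighbours of NEUROD1 lie on both sides of 0.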

How the data were processed

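Per the labels' protocols, total RNA was reverse transcribed, amplified by PCR and sequenced on a Nanopore instrument, and the submitters' processing notes name minimap2 2.17-r941. Which quantification tool, genome build and annotation were used is not given in the sources used here. Estimated counts, one table of them, were deposited without scaling. The TPM deposited by the authors have the same total in every sample. Set against the counts, they imply a length that is fixed between libraries for NEUROD1, NEUROD4 and NEUROD6 but not for every gene.

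Counts were rounded and tested in R 4.3.3 with edgeR 4.0.16 (filterByExpr, TMM, quasi-likelihood test, two-sided, Benjamini-Hochberg over 13078 genes, threshold 0.05). Folds are the higher over the lower group. Standard errors are the log2 fold change over the square root of F. A group without counts was set at a floor of 3 counts in each library. On simulated counts for 12613 genes of HP against LP, 182 of 200 genes changed 4-fold were recovered, with 2 false calls. The simulation gave all genes the same dispersion and changed a far smaller share of them than the 51.2% called here. It checks that the code runs as meant and does not give the error rates on these data. Intervals and floors cover counting error only, since amplified reads are not independent molecules. The labels do not say more of the 3 samples per group than the breed, so p-values measure the spread between these samples. Reads of near-identical genes, or of overlapping genes on either strand, could be split in counting.

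The members and lists were chosen with earlier results of these data known. Lists came from general knowledge, and the helix-loop-helix list came from the deposited annotation after the files were read. Named genes were the members, the E proteins, ID1 to ID4, listed neural bHLH factors with 10 or more counts, up to 4 genes of each other list by p, the 5 most similar profiles per member, and 3 neighbours on each side, limited to protein-coding genes after the table was read. Other listed genes were named for their zero counts or their role. Alternatives used limma 3.58.1 and DESeq2 1.42.0. Some genes that met these rules are not reported here. No sequences are shown.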

Additional observations from a re-analysis of the deposited data

How the results depend on the processing

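The direction of NEUROD1, NEUROD2, NEUROD4 and NEUROD6 was kept in each setting that gave a value. On the log2 scale, HP minus LP, leaving out each library gave 8.67 to 9.14 for NEUROD1, 2.24 to 3.58 for NEUROD2, -5.99 to -4.78 for NEUROD4 and 5.70 to 5.95 for NEUROD6. The NEUROD2 range lacks a value without LP replicate 2, where its bound fell under 1. With TPM the NEUROD1 value was 8.08 instead of 8.89, and NEUROD4 and NEUROD6 have no TPM ratio because a group is at 0. Calls over all genes numbered 4794 to 7913 without each library, against 6693. Without a filter on low counts the repressors had 5 calls (1 toward HP), the reported targets 4 and the pituitary lineage regulators 14. With TPM and a pseudocount of 1, the neural bHLH factors had 1 call. Leaving out each library gave 1 to 3 calls for the neural bHLH factors, 2 to 6 for the repressors, 2 to 5 for the reported targets and 9 to 22 for all helix-loop-helix genes. The causes were not tested. No paired analysis was possible because the labels give no replicate numbers shared between the groups. Depth limits NEUROD2 in all libraries and NEUROD1 in LP, where totals of 12 (HP) and 1 (LP) for NEUROD2 and of 9 for NEUROD1 in LP leave wide intervals.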
